A study of Mus musculus with 6 samples.

Results

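The NF-kB pathway was followed through 10 of its genes in muscle stem cells (MuSCs): the subunit genes Nfkb1, Nfkb2, Rela, Relb, and Rel, the inhibitor genes Nfkbia, Nfkbib, and Nfkbie, the feedback gene Tnfaip3, and the kinase gene Ikbkb. Each was found in the deposited tables by its gene symbol, which matched 10 of 10 names among 49671 genes. The rule used no measured value. MuSCs were sorted from the tibialis anterior (TA) muscles of female C57BL/6 mice aged 4 to 6 months, at day 3 after both TA muscles were injected with 1.2% BaCl2, a salt that kills myofibers. RvD1-treated mice (3) received 100 ng of resolvin D1 (RvD1, a lipid mediator of the resolution of inflammation) daily by IP injection, and the 3 control mice received the 0.1% ethanol vehicle. Both TA muscles of a mouse were pooled into 1 RNA-Seq library, so each of the 6 libraries is a separate mouse. Sorted cells carried β1-integrin and CXCR4 and lacked Sca-1, CD11b, Ter119, and CD45, and the sample records add CD31 to the excluded markers. All mice were injured, and RvD1 was given to the whole animal.

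NF-kB is a family of transcription factors that bind DNA as dimers of the 5 subunits. In resting cells, IkB proteins hold the dimers in the cytoplasm until the IkB kinase complex marks IkB for degradation, which releases the dimers to the nucleus. Among the genes they then switch on are several that shut the pathway down again, including Nfkbia and Tnfaip3, and in muscle NF-kB is studied for its part in inflammation, in myoblast proliferation, and in muscle wasting. Much of this control acts on protein location and stability, which RNA levels do not measure.

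Levels are given in TPM, which scales for transcript length and library size and allows genes to be compared with each other. Differences between groups come from expected counts, the RSEM estimates of reads per gene, tested with edgeR's quasi-likelihood method and adjusted by Benjamini-Hochberg over all 14494 genes with enough counts. Libraries held 16148026 to 28149176 expected counts, and the members had 185 to 3979 counts in a library, far above the floor of 3 counts, which equals 0.107 to 0.186 CPM (counts scaled to the library total) and covers counting error only. The label of the cells was checked against marker genes. Summed TPM of 12 myogenic markers ran from 3946 to 4805 in RvD1 and from 3712 to 4072 in vehicle libraries. Myod1 averaged 363 ± 117 TPM in the RvD1 group and 348 ± 25.7 TPM in the vehicle group (SD, n = 3 each). Myog was the largest part of this sum, and its mean over all 6 libraries was 977 TPM. The MuSC marker Pax7 was low, averaging 5.41 TPM over the same libraries (range 4.03 to 8.5). The sum is therefore a check of myogenic identity and does not separate stem cells from more differentiated myogenic cells. Of 8 neutrophil markers, S100a9, Ly6g, Retnlg, and Elane had no count in any library. Cxcr2, S100a8, Csf3r, and Mpo had 39.25, 15, 14, and 8 counts summed over the 6 libraries, too few to be tested.

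The promoters of the members were read first, because the feedback genes of this pathway are known to be bound by the factors they restrain. RefSeq windows on GRCm38.p6, from 250 bases before to 50 bases after each transcription start, were at hand for 7 of the 10 genes and gave 10 windows. They were searched on both strands for the 10-letter NF-kB consensus, called the kB motif. It was found in 7 of the 10 member windows and in 5 of the 7 genes, against 4.505% of all 32851 windows and 5.14% of all 27025 genes. Nfkb1, Relb, and Ikbkb were not searched. Below are the 250 bases upstream of Nfkbia, shown because this gene had the highest level of the members (chr12:55492648-55492897, minus strand, 5′ to 3′), with the kB match in capitals.
Nfkbia: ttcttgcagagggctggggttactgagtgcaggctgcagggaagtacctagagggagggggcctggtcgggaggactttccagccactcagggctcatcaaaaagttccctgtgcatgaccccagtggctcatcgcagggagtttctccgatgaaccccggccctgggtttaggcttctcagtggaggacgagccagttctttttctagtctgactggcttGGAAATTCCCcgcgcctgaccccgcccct

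The other genes with a match are shown as short stretches around it, in the direction of transcription, so that the variants of the motif can be compared, with matched bases in capitals. Where 2 matches overlap, the capitals run over both.
Tnfaip3 (chr10:19015517-19015544, minus strand): actcacgcgGGGACACCCCggggcggga
Tnfaip3 (chr10:19015404-19015431, minus strand): atttccatcGGAAATCCCCctgttggca
Rel (chr11:23771042-23771070, minus strand): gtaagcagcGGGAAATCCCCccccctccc
Nfkbie (chr17:45555585-45555612, plus strand): cagcaaacaGGGGGATTCCggaggggcg
Nfkb2 (chr19:46304689-46304717, plus strand): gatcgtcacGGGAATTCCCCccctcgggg
Nfkb2 (chr19:46304717-46304744, plus strand): gggccgaaaGGGGCTTTCCcggctggag

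The match of Nfkbia lay from base -29 to -20 counted from its start. Tnfaip3 had matches from -125 to -116 and from -12 to -3, and Nfkb2 had 2 stretches within 39 bases of its first start, at -39 to -29 and -11 to -2. Matches at 3 or more positions, as at that start of Nfkb2, were present in 17 of all windows (0.0517%). Rel was matched from -92 to -82 and Nfkbie from -106 to -97. The other 2 RefSeq starts of Nfkb2 have overlapping windows. They held a match at -236 to -227 of the second start and 1 shared match, at 11 to 20 of the second start and -225 to -216 of the third, which is the same stretch counted in both windows. Rela and Nfkbib had no match in their windows, which says only that these letters are absent there. The Nfkbib window (28766595 to 28766894) lies inside the GENCODE bounds given below for this gene, which reach 28767512. The first Nfkb2 window, from 46304487, likewise lies inside bounds that begin at 46304320. The outermost GENCODE starts of these 2 genes were therefore not searched. A match is a run of letters, and binding was not measured.

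**Figure D1:**
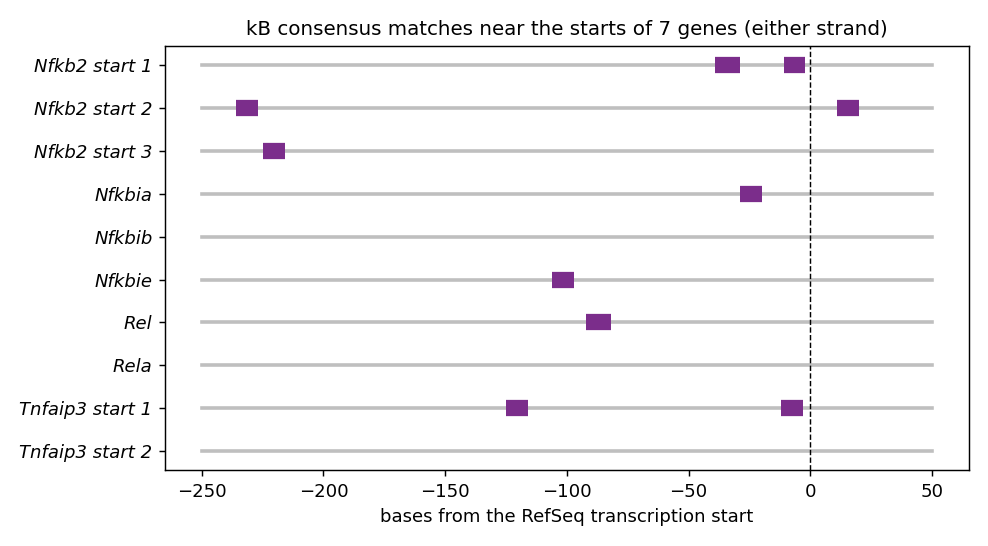
Positions of kB matches (purple boxes) in the RefSeq windows of 7 member genes, in bases from the transcription start (dashed line) on the horizontal axis, with 1 gray line per start. Matches lie within 39 bases of a start for Nfkbia, Nfkb2, and Tnfaip3, and the lines of Rela, Nfkbib, and the second Tnfaip3 start have none.

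MuSCs of both groups expressed every member. Over the 6 libraries, mean TPM fell in the order Nfkbia (250.1), Rela (60.5), Nfkb2 (45.3), Nfkbib (42.2), Ikbkb (29.1), Nfkb1 (24.8), Relb (16.5), Nfkbie (8.62), Tnfaip3 (7.80), and Rel (5.49). Nfkbia stood above 94.6% of tested genes in mean TPM and Rel above 32.6%. The ranges over libraries did not overlap between Nfkbia and Rela, Rela and Nfkb2, Nfkbib and Ikbkb, Nfkb1 and Relb, or Relb and Nfkbie. Neighbors whose ranges overlapped were Nfkb2 and Nfkbib, with Nfkb2 higher in 5 of 6 libraries, Ikbkb and Nfkb1 (6 of 6), Nfkbie and Tnfaip3 (5 of 6), and Tnfaip3 and Rel (6 of 6).

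**Figure D2:**
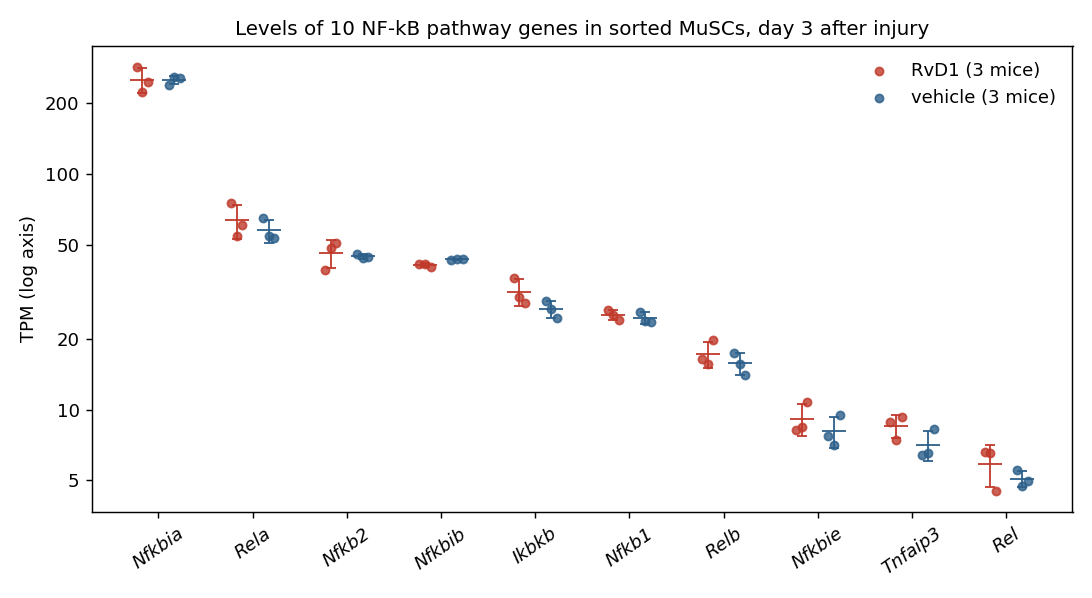
TPM of the 10 members in each library on a log axis, ordered by mean level, with RvD1 in red, vehicle in blue, and bars for the mean and SD of 3 mice. Nfkbia lies near 250.1 TPM and Rel near 5.49, and the points of the groups are separate for Nfkbib alone.

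No member passed the test for a difference between RvD1 and vehicle. Of the 10, 0 had an adjusted p under 0.05 in edgeR (background 0.00% of 14494 tested genes) and 0 had an unadjusted p under 0.05 (background 3.47%). Both counts were also 0 in DESeq2, where the background at an unadjusted p under 0.05 was 3.27%. The log2 fold change of RvD1 against vehicle was above 0 for 6 and below 0 for 4, with a median of 0.06 beside 0.01 for all tested genes. On log2(TPM + 1) it was above 0 for 8, with Nfkb1 and Nfkb2 positive, and on that scale 67.9% of all tested genes lay above 0, against 53.5% in the edgeR fit. The 95% confidence intervals reached from 0.761-fold for the lowest end to 1.43-fold for the highest, so that for each of the 10 genes a change of 1.5-fold in either direction lay outside its interval. Groups did not overlap for 1 member, Nfkbib, which was lower with RvD1 (background 4.83% lower and 4.80% higher). Each p-value sets the difference between groups against the spread between libraries. With 1 library per mouse, this spread holds technical error as well as differences between mice. In sorted bulk cells, fewer cells of a kind and less RNA per cell cannot be told apart.

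**Figure D3:**
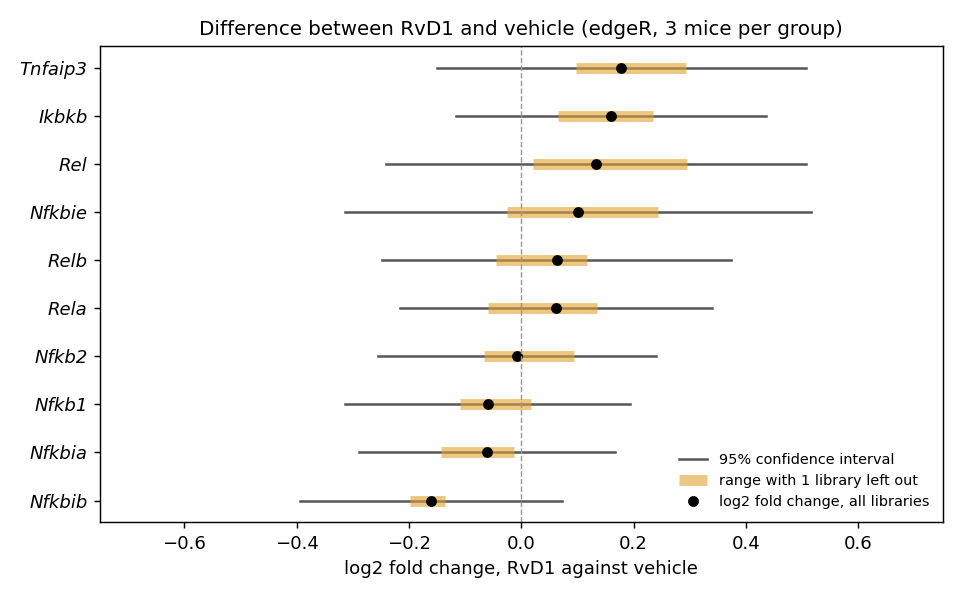
Log2 fold change of RvD1 against vehicle for each member (points), with 95% confidence intervals from edgeR (lines) and the range when 1 library is left out (orange bars). Every interval includes 0, from Nfkbib at -0.16 to Tnfaip3 at 0.18.

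Rela (ENSMUSG00000024927, chromosome 19 of GRCm38, 5637483 to 5648130, plus strand) encodes the subunit with the main transactivation domain of the canonical pathway. It was at 75.1, 54.5, and 60.9 TPM in RvD1 replicates 1 to 3 and at 65.0, 54.2, and 53.3 TPM in vehicle replicates 1 to 3. RvD1 replicate 1 was the highest library, and in TPM the other RvD1 libraries lay within the vehicle range. Counts gave a log2 fold change of 0.06 (SE 0.12, 95% interval -0.22 to 0.34, edgeR adjusted p = 0.971), and it was -0.06 without RvD1 replicate 1.

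Nfkb1 (ENSMUSG00000028163, chromosome 3, 135584655 to 135691547, minus strand) encodes a precursor that is processed to the partner of Rela in the classical dimer. Its levels were 26.5, 25.1, and 24.0 TPM with RvD1 and 26.0, 23.9, and 23.4 TPM with vehicle, a narrow band in which the groups overlapped. The log2 fold change from counts was -0.06 (SE 0.11, 95% interval -0.31 to 0.19, edgeR adjusted p = 0.971). On log2(TPM + 1) it was 0.04. The transcript length implied by counts and FPKM differed by 10.8% between libraries for Nfkb1, the widest range of the members. The part of this length in the sign was not tested.

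Nfkb2 (ENSMUSG00000025225, chromosome 19, 46304320 to 46312385, plus strand) encodes the precursor whose processing defines the noncanonical pathway. It was at 39.0, 48.3, and 50.7 TPM with RvD1 and at 45.9, 43.8, and 44.3 TPM with vehicle. The RvD1 libraries held both the lowest and the 2 highest values and the vehicle libraries sat between them. Coefficients of variation in normalized CPM (SD over the mean) were 12.5% with RvD1 and 1.01% with vehicle. The log2 fold change was -0.0075 (SE 0.11, 95% interval -0.25 to 0.24, edgeR adjusted p = 0.997), and 0.09 without RvD1 replicate 1. Exons of Psd and AC114539.1 lie on the opposite strand of this locus, and the cDNA and library kits named in the sources (SMARTseq v4 and Nextera XT) do not mark the strand, so reads of these genes cannot be told apart there.

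Relb (ENSMUSG00000002983, chromosome 7, 19606217 to 19629438, minus strand), the usual partner of processed Nfkb2, was at 16.4, 15.6, and 19.7 TPM with RvD1 and at 17.5, 15.6, and 14.1 TPM with vehicle. Its highest library was RvD1 replicate 3 and its lowest vehicle replicate 3, and the rest overlapped. Its log2 fold change was 0.06 (SE 0.14, 95% interval -0.25 to 0.37, edgeR adjusted p = 0.975).

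Rel (ENSMUSG00000020275, chromosome 11, 23736847 to 23770970, minus strand), best known from lymphoid cells, had the lowest level of the family, with 6.61, 6.54, and 4.52 TPM with RvD1 and 5.54, 4.76, and 4.98 TPM with vehicle. RvD1 replicates 1 and 2 lay above all vehicle libraries, and RvD1 replicate 3 lay below them. From counts, the log2 fold change was 0.13 (SE 0.16, 95% interval -0.24 to 0.51, edgeR adjusted p = 0.971). It ranged from 0.02 without RvD1 replicate 2 (edgeR adjusted p = 0.982) to 0.29 without RvD1 replicate 3 (edgeR adjusted p = 0.788), a fit in which Rel had an unadjusted p under 0.05, as did 4.61% of all genes tested there.

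Rela gave the largest share of summed subunit TPM in every library, 40.1% ± 5.12 (SD, n = 3) with RvD1 and 38.9% ± 1.47 (SD, n = 3) with vehicle. Nfkb2 gave 29.3% ± 4.70 and 30.4% ± 1.51, Nfkb1 15.98% ± 0.881 and 16.6% ± 0.278, Relb 10.9% ± 1.25 and 10.6% ± 0.515, and Rel 3.74% ± 0.807 and 3.46% ± 0.103. RvD1 replicate 1 had the highest share of Rela (45.9%) and the lowest of Nfkb2 (23.8%). The groups overlapped for each of the 5 shares.

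Nfkbia (ENSMUSG00000021025, chromosome 12, 55489410 to 55492647, minus strand) encodes IkBα, the inhibitor that is degraded and resynthesized fastest, and carries the upstream kB match printed above. It was at 284, 223, and 245 TPM with RvD1 and at 238, 257, and 255 TPM with vehicle. The highest and the lowest library were both RvD1, and the vehicle libraries fell between them. Group means were 250.4 ± 30.8 TPM and 249.9 ± 10.5 TPM (SD, n = 3 each). The log2 fold change from counts was -0.06 (SE 0.10, 95% interval -0.29 to 0.17, edgeR adjusted p = 0.971).

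Nfkbib (ENSMUSG00000030595, chromosome 7, 28758251 to 28767512, minus strand) encodes IkBβ, an inhibitor of slower turnover. Its levels were 41.4, 41.6, and 40.1 TPM with RvD1 and 43.2, 43.4, and 43.6 TPM with vehicle. Every RvD1 library lay below every vehicle library, in TPM and in normalized CPM. The difference was small, with means of 41.0 ± 0.837 and 43.4 ± 0.204 TPM (SD, n = 3 each). The log2 fold change was -0.16 (SE 0.10, 95% interval -0.39 to 0.07, edgeR adjusted p = 0.971), and -0.08 on log2(TPM + 1). Exons of Sirt2 and Ccer2 overlap this gene on the opposite strand. Fractional counts, which RSEM gives when reads are divided among genes, were present in 3 libraries for Nfkbib and in all 6 for Nfkb2.

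Nfkbie (ENSMUSG00000023947, chromosome 17, 45555703 to 45563169, plus strand), which encodes IkBε, was at 8.22, 8.39, and 10.8 TPM with RvD1 and at 7.72, 7.08, and 9.48 TPM with vehicle. Replicate 3 was the highest library of each group, and the groups overlapped. Its log2 fold change was 0.10 (SE 0.18, 95% interval -0.31 to 0.52, edgeR adjusted p = 0.971), the widest interval of the members.

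Nfkbia gave 83.2% ± 1.75 of the summed TPM of these inhibitors in RvD1 and 82.9% ± 0.620 in vehicle libraries (SD, n = 3 each). The ratio of summed inhibitor to summed subunit TPM was 2.04, 1.82, and 1.85 with RvD1 and 1.81, 2.16, and 2.20 with vehicle. Nfkbia transcripts outnumbered those of Rela 3.77, 4.09, and 4.02 times with RvD1 and 3.66, 4.73, and 4.79 times with vehicle. In both ratios vehicle replicate 1 was the lowest library and vehicle replicates 2 and 3 were the highest, so the RvD1 libraries fell inside the vehicle range.

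**Figure D4:**
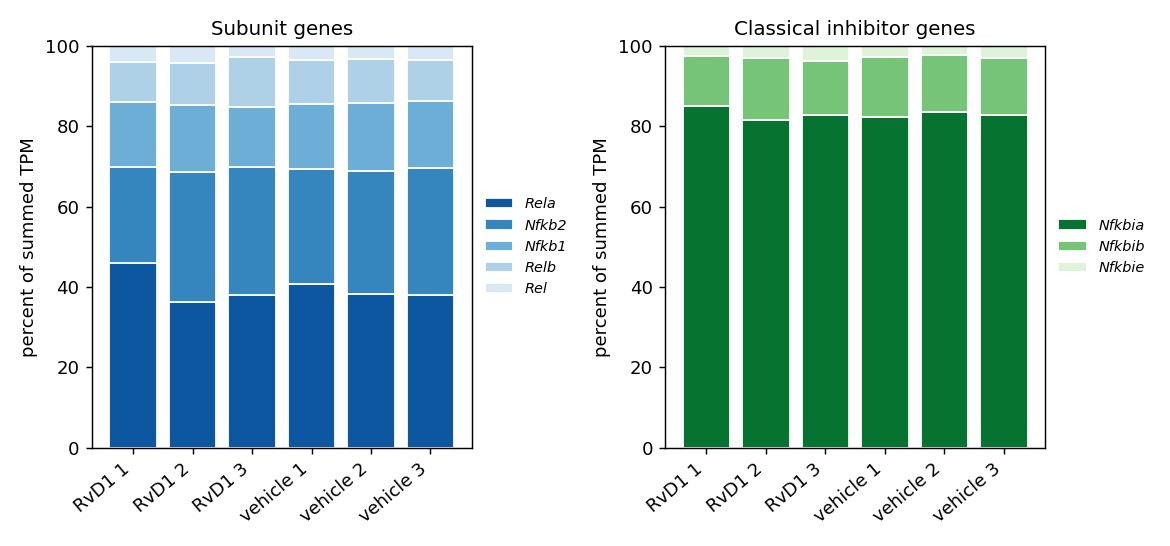
Share of each gene in the summed TPM of the 5 subunit genes (left, blue) and of the 3 classical inhibitor genes (right, green), in percent, with 1 bar per library. Rela and Nfkbia are the largest parts of every bar, and the largest departure is the Rela share of 45.9% in RvD1 replicate 1.

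Tnfaip3 (ENSMUSG00000019850, chromosome 10, 19000910 to 19015657, minus strand) encodes a ubiquitin-editing enzyme that ends signaling from the TNF receptor and Toll-like receptors and is itself a target gene, with 2 kB matches near its first start. It was at 8.84, 7.45, and 9.30 TPM with RvD1 and at 6.41, 6.54, and 8.28 TPM with vehicle. In TPM, RvD1 replicates 1 and 3 exceeded every vehicle library and RvD1 replicate 2 lay below vehicle replicate 3. In normalized CPM, RvD1 replicate 1 (21.5) also lay below vehicle replicate 3 (21.9). Group means were 8.53 ± 0.963 and 7.08 ± 1.04 TPM (SD, n = 3 each). With all libraries, the log2 fold change of 0.18 was the largest of the members and did not pass the test (SE 0.14, 95% interval -0.15 to 0.51, edgeR adjusted p = 0.971). It was 0.10 without vehicle replicate 1, a fit in which that of Ikbkb was 0.23, and 0.29 without vehicle replicate 3.

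Ikbkb (ENSMUSG00000031537, chromosome 8, 22659212 to 22706589, minus strand) encodes the catalytic subunit of the IkB kinase complex that drives the canonical pathway. It was at 36.2, 30.1, and 28.3 TPM with RvD1 and at 28.8, 26.8, and 24.5 TPM with vehicle. In TPM, RvD1 replicates 1 and 2 lay above all vehicle libraries and RvD1 replicate 3 just below vehicle replicate 1. In normalized CPM, RvD1 replicate 2 (57.0) also lay below vehicle replicate 1 (57.8). Its log2 fold change was 0.16 (SE 0.12, 95% interval -0.12 to 0.44, edgeR adjusted p = 0.971), and 0.07 without RvD1 replicate 1.

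The spread between mice was wider in the RvD1 group for most members, as for most genes, and this was not tested. The median coefficient of variation of normalized CPM was 12.1% with RvD1 and 6.87% with vehicle, beside 15.7% and 10.1% over all tested genes and 12.1% and 7.74% over the 4344 tested genes of like abundance. It was larger with RvD1 for 8 of the 10 members, with Nfkbie and Tnfaip3 as the exceptions, and for 69.7% of all tested genes. In normalized CPM an RvD1 library was the highest for 8 members and the lowest for 6. RvD1 replicate 1 was highest for Rela, Nfkbia, and Ikbkb, replicate 2 for Nfkb2 and Rel, and replicate 3 for Relb, Nfkbie, and Tnfaip3, so no single library carried all of them.

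Marker genes of other cell types and of cell stress were read in the same libraries. Summed TPM of 14 immediate early and dissociation genes, among them Hspa1a and Hspa1b, was 2774 in RvD1 replicate 1 and 1727 to 2059 in the other 5 libraries. In RvD1 replicate 1, all of these genes but Jun and Junb were at their highest TPM, among them Fos (549) and Egr1 (464). Jun was at its lowest there, 234 TPM in a range up to 257 TPM. Over the list, log2 fold changes were above 0 for 11 genes and below 0 for 3. In edgeR, 0 had an adjusted p under 0.05 (background 0.00%) and 1, Btg2, an unadjusted p under 0.05 (background 3.47%). Groups did not overlap in normalized CPM for 1, Btg2, which was higher with RvD1 (background 4.80%). Summed TPM of 8 fibro-adipogenic markers was 1907 in RvD1 replicate 1 and 868 to 1126 in the others, a sum made up mostly of Col3a1, Dcn, and Gsn. Of these markers 7 were tested, 6 above 0 in log2 fold change and 1 below. The 1 below was the defining marker Ly6a, which encodes Sca-1, at -0.62 (SE 0.20, edgeR adjusted p = 0.971). Ly6a was lower in every RvD1 library (25.4, 22.4, and 17.3 TPM) than in the vehicle libraries (39.7, 26.3, and 30.3 TPM). It alone of the 7 had groups that did not overlap in normalized CPM (background 4.83% lower) and an unadjusted p under 0.05 in edgeR (background 3.47%). Pdgfra was at 3.48, 2.67, and 3.55 TPM with RvD1 and 1.57, 2.51, and 2.52 TPM with vehicle. Its RvD1 libraries were all above the vehicle libraries in TPM, but the groups overlapped in normalized CPM. In normalized CPM, RvD1 replicate 1 was the highest library for 3 of the 10 members, Rela, Nfkbia, and Ikbkb. In TPM it was the highest for these and also for Nfkb1 (26.48) and Rel (6.61). Leukocytes express these NF-kB genes as well, and summed TPM of 20 leukocyte markers was 50.3 to 71.2 with RvD1 and 63.8 to 111 with vehicle, with Nkg7 at 0 and 14 of the 16 tested markers below 0 in log2 fold change. In edgeR, 0 of the 16 had an adjusted p under 0.05 (background 0.00%) and 4 had an unadjusted p under 0.05 (background 3.47%), all lower. Groups did not overlap in normalized CPM for 3 of the 16, all lower with RvD1 (background 4.83%). The part of these transcripts in the member values was not tested.

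The wider pathway was read from 73 further genes, all present in the tables, of which 64 had enough counts. Of these, 0 had an adjusted p under 0.05 (background 0.00%) and 1, Birc2, had an unadjusted p under 0.05 (background 3.47%). Log2 fold changes were above 0 for 45 and below 0 for 19, with a median of 0.09, beside 53.5% above 0 and a median of 0.01 for all tested genes. Groups did not overlap for 5 genes that were higher with RvD1, which were Map3k7, Traf5, Traf6, Irak4, and Itch (background 4.80%), and for 0 that were lower (background 4.83%).

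Among receptors, adaptors, and ubiquitin ligases, 21 of 22 genes were tested, 15 were above 0 and 6 below, and the median log2 fold change was 0.13. Tnfrsf12a, the receptor for the cytokine TWEAK that acts on muscle, was the most abundant, at 575 ± 88.3 in RvD1 and 540.1 ± 54.8 TPM in vehicle libraries (SD, n = 3 each), and its log2 fold change was -0.01 (SE 0.11). Irak1, a kinase of Toll-like and interleukin-1 receptor signaling, was at 77.3 ± 3.85 and 70.7 ± 6.89 TPM. Birc2, a ubiquitin ligase of the TNF receptor complex, was at 31.9, 19.1, and 17.7 TPM with RvD1 and at 20.2, 15.5, and 16.8 TPM with vehicle. RvD1 replicate 1 again stood highest, and the groups overlapped in TPM (log2 fold change 0.40, SE 0.17, edgeR adjusted p = 0.971). For Traf6, the ligase downstream of the same receptors as Irak1, the 3 RvD1 libraries were at 20.4, 19.2, and 20.2 TPM and all above the vehicle libraries at 18.2, 15.6, and 15.1 TPM (log2 fold change 0.21, SE 0.09, edgeR adjusted p = 0.971).

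The 9 genes of the kinase complex and its upstream kinases were all tested, 7 above 0 and 2 below, with a median of 0.05. Map3k7, which activates the complex, was at 63.5 ± 3.23 in RvD1 and 53.1 ± 6.45 TPM in vehicle libraries (SD, n = 3 each), but at 137 ± 0.219 and 136 ± 0.756 in normalized CPM, with a log2 fold change of 0.02 (SE 0.08). Chuk, the second catalytic subunit beside Ikbkb, was at 60.0 ± 3.16 and 54.3 ± 1.55 TPM with a log2 fold change of 0.03 (SE 0.09). Tab1, the adaptor of Map3k7, and Tbk1, a related kinase, had log2 fold changes of 0.27 (SE 0.20) and 0.13 (SE 0.10).

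Of 11 other negative regulators 10 were tested, 6 above 0 and 4 below, with a median of 0.03. Rnf11 and Tax1bp1, which work with Tnfaip3, were at 152 ± 20.3 and 138 ± 30.6 TPM with RvD1 and at 135 ± 1.85 and 126 ± 8.94 TPM with vehicle, with log2 fold changes of 0.06 (SE 0.09) and -0.05 (SE 0.10). Itch, the ubiquitin ligase of the same complex, had a log2 fold change of 0.13 (SE 0.08), and N4bp1 had one of -0.27 (SE 0.16). The 3 atypical IkB genes, whose proteins act in the nucleus, were all above 0. Bcl3 was at 101, 56.6, and 55.0 TPM with RvD1 and at 72.1, 56.4, and 58.1 TPM with vehicle (log2 fold change 0.01, SE 0.17), Nfkbiz had a log2 fold change of 0.19 (SE 0.15), and Nfkbid, at 20 counts a library on average, one of 0.46 (SE 0.42).

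Of 28 target genes 21 were tested, 14 above 0 and 7 below, with a median of 0.09. The most abundant were Sod2, the mitochondrial superoxide dismutase, at 190.4 ± 15.7 in RvD1 and 198 ± 3.36 TPM in vehicle libraries (SD, n = 3 each), and Vcam1, an adhesion molecule of MuSCs, at 201 ± 56.1 and 177 ± 20.4 TPM. Their log2 fold changes were -0.08 (SE 0.09) and 0.11 (SE 0.17). Cflar, an inhibitor of caspase activation, was at 45.7, 36.9, and 32.2 TPM with RvD1 and at 35.5, 28.4, and 31.8 TPM with vehicle (log2 fold change 0.34, SE 0.17, edgeR adjusted p = 0.971). The neutrophil chemokine gene Cxcl5 had 59, 65, and 17 counts with RvD1 and 17, 20, and 24 with vehicle, and a log2 fold change of 0.77 (SE 0.42). The targets with too few counts to be tested were Ccl5, Ccl20, Tnf, Nos2, Bcl2a1b, Saa3, and Sele. Tnf had 36 counts over the 6 libraries and Ccl20 had 0, which allows at most 3 counts in a library.

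**Figure D5:**
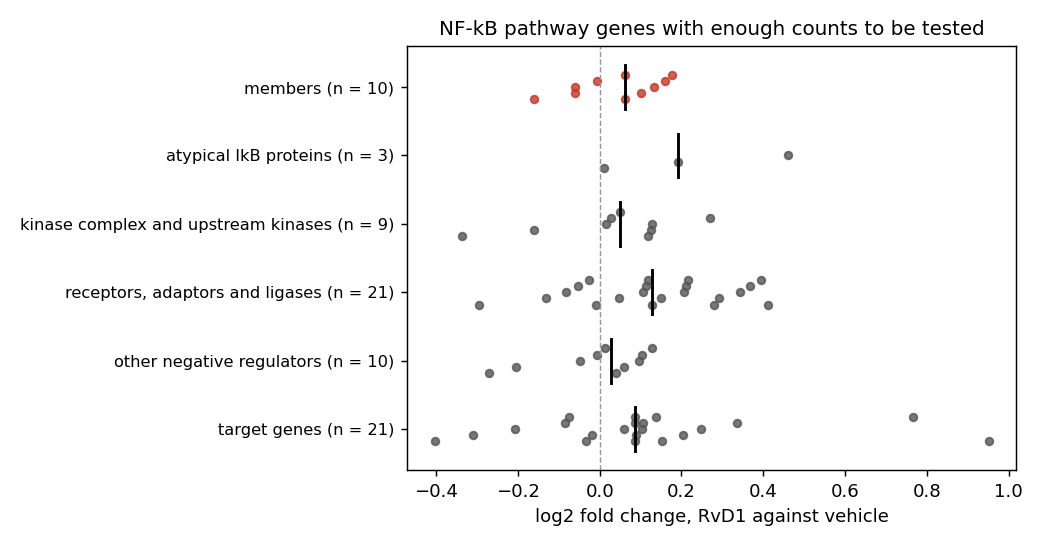
Log2 fold change of RvD1 against vehicle for the 10 members (red) and for the tested genes of the 5 other pathway lists (gray), with the median of each list as a black line. The members span -0.16 to 0.18 and the target genes -0.40 to 0.95.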

How the data were processed

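RNA-Seq was performed on sorted MuSCs of 6 mice, 1 library each. The authors aligned 76-bp single-ended reads to mm10 with STAR 2.5.0a and quantified genes with RSEM, whose version and annotation are not given in the sources used here. The deposited expected counts are RSEM estimates that the authors did not scale for depth. In the deposited TPM and FPKM tables, the authors' scaling covers both the length of transcripts and the size of the library. Full-length cDNA was amplified before library preparation and reads carry no molecular identifiers, so amplification adds to the error beyond counting.

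Expected counts were rounded and tested with edgeR 4.0.16 in R 4.3.3 (filterByExpr, TMM, quasi-likelihood test, Benjamini-Hochberg adjustment over 14494 genes, threshold 0.05). Normalized CPM means CPM with TMM factors. On counts simulated for RvD1 against vehicle, edgeR recovered 167 of 200 genes changed 4-fold, with 11 false calls among 14234 genes tested. Changes as small as those of the members were not simulated, so this check does not show how often they would be recovered. The members and lists were chosen with earlier results of these data known. Outside the members, the text names from each pathway list the 2 genes highest in mean TPM and the 2 with the smallest p, and for Nfkbia the 5 genes with the most similar profile. Traf5, Irak4, Sele, Tnf, Ccl20, and some of the marker genes, among them Kdr and Pecam1, were named once their values were known. The alternatives comprised DESeq2 1.42.0, limma 3.58.1 with voom, with and without 1 surrogate variable removed by sva 3.50.0 (the study's procedure), other scalings and filters, robust estimation, a replicate block, log2 TPM with pseudocounts of 1 and 0.1, log2 FPKM with a pseudocount of 1, and each library left out. Positions are from GENCODE M21, which held 99.3% of the gene IDs, and promoters from RefSeq.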

Additional observations from a re-analysis of the deposited data

How the results depend on the processing

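Under the 19 alternatives, 0 members had an adjusted p under 0.05 in edgeR, DESeq2, or limma, and the smallest was 0.510. Over all genes the number was 12 without a filter on low counts (5 higher) and 0 to 1 with 1 library left out, where the 1 came without RvD1 replicate 3. The number of pathway genes was 1 without the filter, the target gene Sele (log2 fold change -4.67, edgeR adjusted p = 0.0408), which had 2, 1, and 0 counts with RvD1 and 26, 0, and 40 with vehicle. The median member log2 fold change was 0.13 on log2(TPM + 0.1), a scale on which the median of all genes was 0.09. Members whose groups did not overlap numbered 1 to 3 with 1 library left out, which by construction makes separation more frequent (15.2% to 23.3% of tested genes). The number was 3 without RvD1 replicate 1 (Nfkb2, Nfkbia, Nfkbib) and without vehicle replicate 3 (Nfkbie, Tnfaip3, Nfkbib), and 2 without RvD1 replicate 3 (Rel, Nfkbib) and without vehicle replicate 1 (Ikbkb, Nfkbib). Members at an unadjusted p under 0.05 numbered 0 to 1 with 1 library left out, the 1 being Rel without RvD1 replicate 3, where 4.61% of all genes had such a p (1.9% to 6.83% over the 6 fits).

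The sign of some members near 0 depended on the setting, and the cause was not tested. For Nfkb2 the log2 fold change was 0.025 with library totals alone, 0.055 with a surrogate variable removed and 26518 genes kept, 0.034 on log2(TPM + 1), 0.035 on log2(TPM + 0.1), and -0.066 to 0.093 with 1 library left out. For Nfkb1 it was 0.044 on log2(TPM + 1), 0.045 on log2(TPM + 0.1), and -0.11 to 0.017 with 1 library left out. With 1 library left out, it ran from -0.059 to 0.14 for Rela, -0.046 to 0.12 for Relb, and -0.025 to 0.24 for Nfkbie. Both groups number their replicates 1 to 3. Deviations from the group means had correlations across genes of 0.310, -0.001, and 0.126 for same-numbered libraries, so the numbers were not taken to pair the mice. RvD1 replicates 1 and 3 correlated best with their own number and RvD1 replicate 2 with vehicle replicate 3 (0.173). With a replicate block, edgeR called 0 genes at an adjusted p under 0.05, 896 had an unadjusted p under 0.05, and the median member log2 fold change was 0.06.

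With 3 mice per group, changes within the interval given for a member could not be told from 0, and SMART-type amplification from small inputs adds error that the counts do not show.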

Other observations

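The profile of Nfkbia over the 6 libraries, in normalized log2 CPM centered and scaled per gene, was most like those of C1qa, Isoc2b, Mospd3, Gm17024, and Dnajc28, with root mean square differences of 0.209, 0.226, 0.248, 0.253, and 0.256. Of these, C1qa (a complement gene of macrophages) was at 1.25 TPM and Mospd3 at 25.6 TPM on average. The other members differed from Nfkbia by 1.05 (Rela) to 1.72 (Nfkb2), around the 1.30 that was the median of all tested genes. With 6 libraries and 14494 genes, close profiles of this kind carry no information on shared control.

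Sele, which encodes the endothelial adhesion molecule E-selectin, was listed at 0.92, 0, and 1.18 TPM in the vehicle libraries and at 0.05, 0.02, and 0 TPM in the RvD1 libraries. Summed TPM of 8 endothelial markers was 17.4, 8.59, and 28.8 with vehicle and 18.5, 15.3, and 14.3 with RvD1, a sum made up mostly of Egfl7 and Esam. Of the 8 markers, 7 had a log2 fold change below 0, with a median of -1.07. In edgeR, 0 had an adjusted p under 0.05 (background 0.00%) and 0 an unadjusted p under 0.05 (background 3.47%). The lowest were Kdr at -1.74 (SE 0.83) and Pecam1 at -1.42 (SE 0.82). Kdr had 68, 5, and 68 counts with vehicle and 23, 31, and 4 with RvD1. Pecam1 had 95, 22, and 132 counts with vehicle and 53, 76, and 2 with RvD1. The vehicle libraries had the same order in both measures, and the part of the endothelial transcripts in the Sele values was not tested.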
